A study of Mus musculus with 11 samples.

Results

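Il21 and Il4 encode interleukin 21 and interleukin 4, the cytokines through which follicular helper T (Tfh) cells act on B cells, and both genes were followed by symbol through the deposited bulk and single-cell RNA data. They are 2 of the 29224 genes of the bulk table and 2 of the 31053 genes of the single-cell matrix. In the single-cell library, 775 of the 11730 cells kept held at least 1 unique molecular identifier (UMI, a tag that marks 1 captured RNA molecule) of either gene. Il21 was found in 557 cells and Il4 in 321, with 103 cells holding both.

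Interleukin 21 binds a receptor made of IL-21R and the common gamma chain, and acts mainly through JAK1, JAK3 and STAT3 to support germinal centre B cells and plasma cell formation. Interleukin 4 binds IL-4Rα, which pairs with the common gamma chain or with IL-13Rα1 and acts through STAT6, and it directs class switching to IgG1 and IgE. Both genes are switched on after T cell receptor signals through calcium-driven NFAT factors, and c-Maf acts on each. Follicular regulatory T (Tfr) cells, which restrain this help, share CXCR5 and PD-1 with Tfh cells but express Foxp3.

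The series compares follicular T cells of C57BL/6 mice with and without Sostdc1, whose secreted product blocks Wnt and BMP ligands. It holds 11 samples in 8 groups from draining lymph nodes, of which 3 were used here and 8 were not analysed here. The bulk table covers 1 library labelled as Tfr cells of wild-type (WT) mice and 1 labelled as Tfr cells homozygous for the Sostdc1 allele and titled as knockout (KO), sorted as CXCR5- and PD-1-positive with high GITR. The single-cell library was made from CD44-positive CD4 T cells of mice heterozygous for a Sostdc1-EGFP reporter. No label says how many animals were pooled for a library, or what immunisation they had received.

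With 1 library per group, no difference below has a replicate check, and no p-value is given. Values in brackets after a level or fold are exact 95% intervals for counting error alone, and bulk reads carry no molecular identifier, so they are not independent molecules. The bulk libraries held 27777625 counts (labelled KO) and 18076300 counts (labelled WT). Sostdc1 itself goes against the labels: its 458 counts were in the library labelled KO, against 4 in the other. The sources used here do not give which part of the gene the allele removes. Directions in bulk are therefore stated for the labelled libraries and not for the genotypes. Both libraries carried the markers of their sort, with Foxp3 at 1164 counts per 1000000 counts of its library (CPM) where the label is KO and 1471 CPM where it is WT. Cxcr5 stood at 62.8 and 55.7 CPM, Pdcd1, which encodes PD-1, at 229 and 164 CPM, and Tnfrsf18, which encodes GITR, at 276 and 165 CPM.

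The promoters of both genes are printed because NFAT-binding cores close to the start are the best known shared feature of their control. Each line gives the 250 bases before the RefSeq start (build GRCm38.p6, minus strand, read 5′ to 3′ along the gene), at chr3:37232637-37232886 for Il21 and chr11:53618666-53618915 for Il4. Capitals mark each GGAAA, the core bound by NFAT, or its reverse complement TTTCC. The table gives Il4 a further start within the gene, which is not shown.
Il21: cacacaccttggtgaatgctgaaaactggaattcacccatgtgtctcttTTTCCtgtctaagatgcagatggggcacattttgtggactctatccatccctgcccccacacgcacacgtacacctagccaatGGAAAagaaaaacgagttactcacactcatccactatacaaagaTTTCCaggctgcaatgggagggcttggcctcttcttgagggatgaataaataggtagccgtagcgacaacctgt
Il4: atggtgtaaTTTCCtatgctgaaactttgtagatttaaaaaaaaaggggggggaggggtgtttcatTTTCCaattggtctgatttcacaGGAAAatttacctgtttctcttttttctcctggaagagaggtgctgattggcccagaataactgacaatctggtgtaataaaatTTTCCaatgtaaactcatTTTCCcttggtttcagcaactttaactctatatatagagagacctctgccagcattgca

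GGAAA occurred 3 times before Il21 and 5 times before Il4, on either strand, and 55.6% of the 32851 RefSeq promoter windows of this length held at least 1, with a mean of 0.854 per window. The 3 matches of Il21 began 201, 118 and 74 bases before the start. Those of Il4 began 241, 184, 161, 77 and 59 bases before it. TGCTGA, a partial Maf site, was present once before Il21 and 3 times before Il4, against 16.1% of all windows with at least 1. Both genes held TGCTGA at 234 bases before the start. The STAT6 spacing, TTC and GAA with 4 bases between, occurred once before Il4, from 167 to 158 bases before the start, where it overlaps a GGAAA. It was not found before Il21, and 5.85% of windows held it. The E-box CANNTG occurred 2 times before Il21 and once before Il4, where it shares 1 base with a TTTCC, and 66.2% of windows held it. The AP-1 site TGANTCA, the STAT site TTCNNNGAA and the GATA core GATAA were not found in either window, and 6.75%, 7.02% and 22.6% of windows held them. A match is a description of letters and not a binding site.

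In bulk Tfr RNA both cytokine genes were far higher in the library labelled KO. Il21 had 2299 counts there and 74 in the library labelled WT, or 82.8 CPM (79.4 to 86.2) against 4.09 CPM (3.21 to 5.14). This is a 20.2-fold difference (16.0 to 25.8). Il4 had 1291 counts against 30, or 46.5 CPM (44.0 to 49.1) against 1.66 CPM (1.12 to 2.37), a 28.0-fold difference (19.5 to 41.7). The authors' deposited table gives the same folds, 20.2 and 28.0. Among the 10194 genes that reached 5 CPM in either library, ordered by the log2 ratio with 1 CPM added to each value, Il4 ranked 3rd and Il21 ranked 4th. At least 2-fold higher in the library labelled KO were 2.6% of these genes, and 9.12% were at least 2-fold lower. In bulk RNA, more cells with a transcript and more transcript per cell cannot be told apart. Il21 overlaps the RefSeq gene Gm36168, and the sources used here do not give how the counts treat strand, so reads of the pair cannot be told apart. No RefSeq gene overlaps Il4.

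Of 10 receptor genes, 0 were at least 2-fold higher and 1 was lower in the library labelled KO, Il13ra1, at 3.06 against 7.14 CPM. Over all genes measured, 2.6% were higher and 9.12% lower. Il21r was at 203 against 221 CPM, Il4ra at 396 against 336 CPM, and Il2rg, the common gamma chain, at 330 against 165 CPM, 2.00-fold higher (1.92 to 2.09). With scaling by trimmed mean of M-values (TMM) in place of the library total, Il2rg passed the 2-fold limit and Il13ra1 did not. Of 11 JAK and STAT genes 2 were lower, Jak3, the kinase bound to the common gamma chain, 3.56-fold (3.43 to 3.69; 153 against 545 CPM), and Tyk2 2.46-fold. Stat3 (1030 against 978 CPM) and Stat6 (353 against 337 CPM) were near equal. Of 11 feedback inhibitors of JAK-STAT signalling, 1 was lower, Socs1, at 34.3 against 163 CPM or 4.74-fold (4.40 to 5.10). Cish, an inhibitor of STAT5 signalling, was at 559 against 308 CPM, 1.82-fold higher, and Socs3 was at 77.5 against 140 CPM.

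Of 25 measured transcription factors known to act on Il21 or Il4, 3 were higher and 2 lower, against 2.6% and 9.12% of all genes. Irf4, which partners with BATF and JUNB on both genes, was 2.60-fold higher (947 against 365 CPM). Rbpj, the nuclear effector of Notch, was 2.12-fold higher (467 against 220 CPM), and Pou2af1 was 7.56-fold higher (19.7 against 2.60 CPM). Junb was 24.5-fold lower (23.3 to 25.8; 56.3 against 1380 CPM) and Jun 4.01-fold lower (17.8 against 71.3 CPM). Among those that did not pass were Maf at 717 against 1012 CPM, Batf at 276 against 311 CPM, Gata3 at 250 against 225 CPM, Nfatc1 at 455 against 369 CPM and Nfatc2 at 123 against 219 CPM. Bcl6, which defines Tfh cells, was at 20.3 against 17.2 CPM.

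The other T cell cytokines stood higher as a list: 12 of 15 genes with at least 5 CPM were at least 2-fold higher in the library labelled KO, against 2.6% of all genes measured. Tgfb1 was the 1 lower gene, 2.15-fold (263 against 565 CPM). It did not pass the limit with TMM scaling. Il17f was highest of these 15 at 14.6-fold (13.6 to 15.8; 579 against 39.6 CPM), followed by Il2 at 10.7-fold (48.0 against 4.48 CPM), Il5 at 10.1-fold (25.1 against 2.49 CPM) and Csf2 at 9.32-fold (53.1 against 5.70 CPM). Il22, Il13, Il17a, Il3 and Ifng lay between 6.93-fold and 9.05-fold. Il21 and Il4 therefore stood above every one of these 15 genes in fold, although the CPM of Il17a (728) and Il17f in the library labelled KO exceeded theirs. Of the 17 cytokine genes listed, Il6 and Il9 did not reach 5 CPM in either library. Il9, with 88 counts against 1, was 57.3-fold higher (10.0 to 2287), above both Il21 and Il4. CPM are not scaled by gene length, so levels of different genes are not comparable as molecules.

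**Figure D1:**
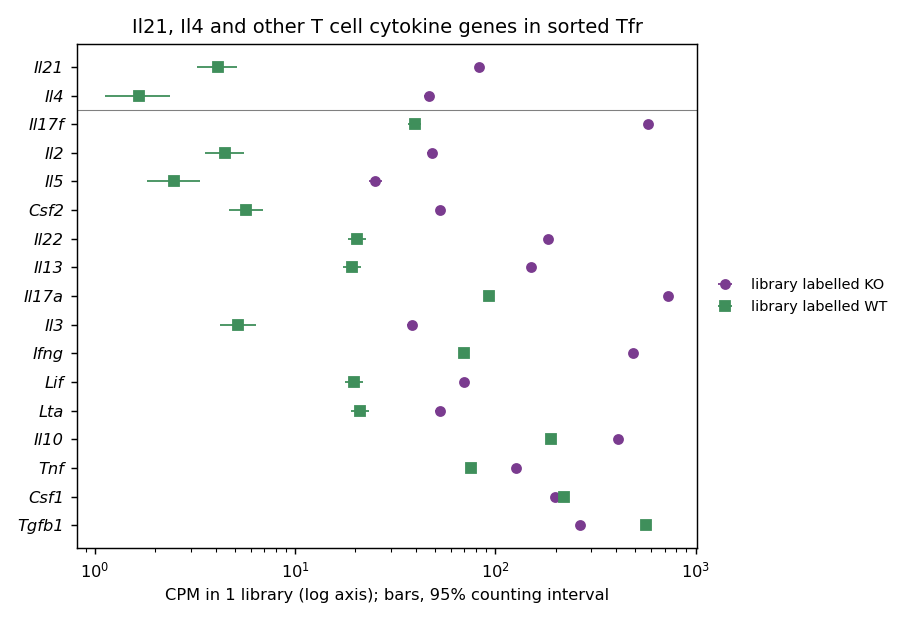
CPM of Il21, Il4 and the 15 other T cell cytokine genes with at least 5 CPM (horizontal log axis) in the library labelled KO (circles) and the library labelled WT (squares), with 95% counting intervals and 1 library per group. Il21 (82.8 against 4.09 CPM) and Il4 (46.5 against 1.66 CPM) show the widest gaps, and only Csf1 and Tgfb1 stand lower in the library labelled KO.

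Of 15 measured genes listed for B cell help, 6 were higher and 0 lower. The list also holds the inhibitory molecules Btla and Cd200 and the adaptor Sh2d1a. Over all genes measured, 2.6% were higher and 9.12% lower. Tnfsf8, the CD30 ligand, was 8.34-fold higher (404 against 48.4 CPM), Cd40lg, which delivers the CD40 signal to B cells, 5.01-fold (137 against 27.4 CPM), Fasl 3.52-fold and Tnfsf4, the OX40 ligand, 3.08-fold. Of Th17 markers 4 of 9 were higher, of Th1 or cytotoxic markers 6 of 9, of Th2 markers 3 of 8, and of Tfh markers 2 of 9. Their summed level, KO label first, was 1895 and 467 CPM for Th17, 1411 and 704 CPM for Th1 or cytotoxic, 2356 and 1715 CPM for Th2, and 840 and 476 CPM for Tfh markers. Among the Tfh markers Tox2 (8.03 against 12.8 CPM) and Cebpa (6.98 against 11.7 CPM) were lower in the library labelled KO, while Angptl2 (342 against 110 CPM) and Cd200 (123 against 54.9 CPM) were higher. Of Treg markers 1 of 9 was higher and 2 lower. Of mast cell or basophil markers, whose cells also make Il4, 1 of 2 measured was higher, with a summed level of 1551 and 1160 CPM that holds the Treg-expressed Gzmb. Of 4 measured B cell markers 1 was higher, H2-Aa (5.50-fold, 19.5 against 3.54 CPM), and 0 were lower. The list summed to 250 and 258 CPM, of which Cd74 held 205 and 232 CPM. Of 3 measured myeloid markers 2 were higher, Lyz2 and Xcr1 (92.7 and 75.2 CPM summed over the list). Interferon response markers had 1 of 9 higher and 4 lower, recently stimulated markers 2 of 10 lower (4260 and 5765 CPM), and resting or central memory markers 2 of 8 lower (1275 and 1814 CPM). With 9.12% of all genes lower, a count of 2 lower among 8 to 10 genes is not read as a difference of the list. The part of the cell types of these lists in the Il21 and Il4 difference was not tested.

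Il21 shares chromosome 3 with Il2, and Il4 lies on chromosome 11 between Rad50 and Kif3a, with Il13 and Il5 near it in the type 2 cytokine cluster. Of 5 measured genes near Il21, 2 were higher in the library labelled KO, against 2.6% of all genes. The 2 were Il2 and Spry1 (2.25-fold, 77.4 against 34.4 CPM), while Spata5 (1.58-fold) and Bbs12 (1.56-fold) lay under the limit. Of 8 measured genes near Il4, 4 were higher, and all 4 are cytokine genes: Il5, Csf2, Il13 (7.86-fold, 151 against 19.2 CPM) and Il3 (7.36-fold, 38.3 against 5.20 CPM). Kif3a (12.2 against 14.1 CPM), Rad50 (57.0 against 60.6 CPM) and Slc22a5 (19.1 against 20.6 CPM), which sit in the same region, had near equal levels.

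The single-cell library gave the distribution of the same transcripts over cells. The 11730 cells kept had a median of 5796 UMIs. They held 1097 Il21 UMIs, or 12.9 CPM of all UMIs, and 562 Il4 UMIs, or 6.61 CPM. Il21 was present in 4.75% of cells (4.37 to 5.15) and Il4 in 2.74% (2.45 to 3.05). Most positive cells held 1 UMI: 333 of 557 for Il21 and 213 of 321 for Il4. The highest cell had 16 UMIs of Il21 and 15 of Il4, and the 10% of positive cells with the most UMIs held 31.7% of Il21 and 32.0% of Il4 UMIs. As a background, the 784 B-like cells (median 4645.5 UMIs), which should lack both, had Il21 in 0.638% and Il4 in 0.255% of cells.

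Cells were gated on RNA, with at least 1 UMI of Cxcr5, at least 1 of Pdcd1 and 0 of Foxp3 taken as the Tfh gate. Its 763 cells, 6.5% of those kept, held 50.1% of Il21 UMIs and 59.8% of Il4 UMIs. Il21 was present in 250 of them, 32.8% (29.4 to 36.2), at 78.0 CPM (71.6 to 84.8), and Il4 in 157, 20.6% (17.8 to 23.6), at 47.7 CPM (42.7 to 53.0). After thinning every cell to 3000 UMIs, which left out 19 cells of the gate, the shares were 15.9% and 11.8%. Of the gate cells, 369 lay in Tfh-like cluster 4 and 172 in Tfh-like cluster 15.

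Cells with only 1 of the follicular receptors held less. In the 1069 cells with Pdcd1 but neither Cxcr5 nor Foxp3, Il21 stood at 21.2 CPM (18.4 to 24.2) and Il4 at 8.25 CPM (6.57 to 10.2). In the 901 cells with Cxcr5 but neither of the others they stood at 16.6 CPM (13.6 to 20.1) and 5.97 CPM (4.22 to 8.19), and the intervals of these neighbouring gates overlapped for both genes. The gates took all cells kept, not T cells alone. B-like clusters 6 and 17 held Cxcr5 (83.3 and 47.9 CPM) with little Pdcd1 (1.59 and 1.80 CPM). Levels in the gate with Cxcr5 alone are therefore diluted by B-like cells, to an extent that was not tested. The 6699 cells with none of the 3 genes had Il21 in 1.69% and Il4 in 0.821% of cells, at 3.99 and 1.58 CPM. The 1696 Foxp3-positive cells without Cxcr5 and Pdcd1 had Il21 in 0.354% and Il4 in 0.531%, with an Il21 share under that of B-like cells and both intervals overlapping theirs. Of the 163 cells with Foxp3 and Cxcr5 alone, 0 held an Il4 UMI, and a floor of 3 counts allows a share of cells with a UMI of up to 1.84%.

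Among Foxp3-negative T cells both levels were higher with each further receptor UMI. Il21 stood at 6.42, 27.8, 33.5 and 72.7 CPM in cells with 0, 1, 2 and 3 or more Pdcd1 UMIs, and Il4 at 2.32, 8.36, 18.8 and 48.2 CPM. Over the same steps of Cxcr5, Il21 stood at 8.24, 34.7, 57.8 and 94.3 CPM and Il4 at 3.02, 17.2, 32.6 and 60.6 CPM. These levels are scaled by all UMIs, and the median depth of the cells moved with them, from 5685 UMIs at 0 to 8313 at 3 or more Pdcd1 UMIs. Neighbouring steps of Il21 at 1 and 2 Pdcd1 UMIs had overlapping intervals (24.0 to 32.0 and 27.5 to 40.4).

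The 82 cells with Cxcr5, Pdcd1 and Foxp3, the RNA counterpart of Tfr cells, held Il21 in 10 cells (12.2%, 6.01 to 21.3) at 30.4 CPM and Il4 in 11 cells (13.4%, 6.89 to 22.7) at 22.8 CPM. The 42 cells with 1 Foxp3 UMI held 31 Il21 UMIs in 9 cells (67.7 CPM, 46.0 to 96.1), and the 40 cells with 2 or more held 1 (1.69 CPM, 0.0427 to 9.39). A single cell of cycling-like cluster 11 with 1 Foxp3 UMI held 16 of these Il21 UMIs. Without it the level was 35.1 CPM (19.6 to 57.9) in the cells with 1 Foxp3 UMI and 15.7 CPM (8.96 to 25.4) over all 82. Il4 had 12 UMIs in 8 cells at 1 Foxp3 UMI (19.0% of cells, 8.60 to 34.1) and 12 UMIs in 3 cells at 2 or more (7.5%, 1.57 to 20.4), with overlapping intervals. Of the latter, 10 UMIs came from 1 cell with 4 Foxp3 UMIs. Without that cell Il4 stood at 3.44 CPM (0.417 to 12.4) in the cells with 2 or more Foxp3 UMIs and at 13.5 CPM (7.36 to 22.6) over the 82 cells.

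**Figure D2:**
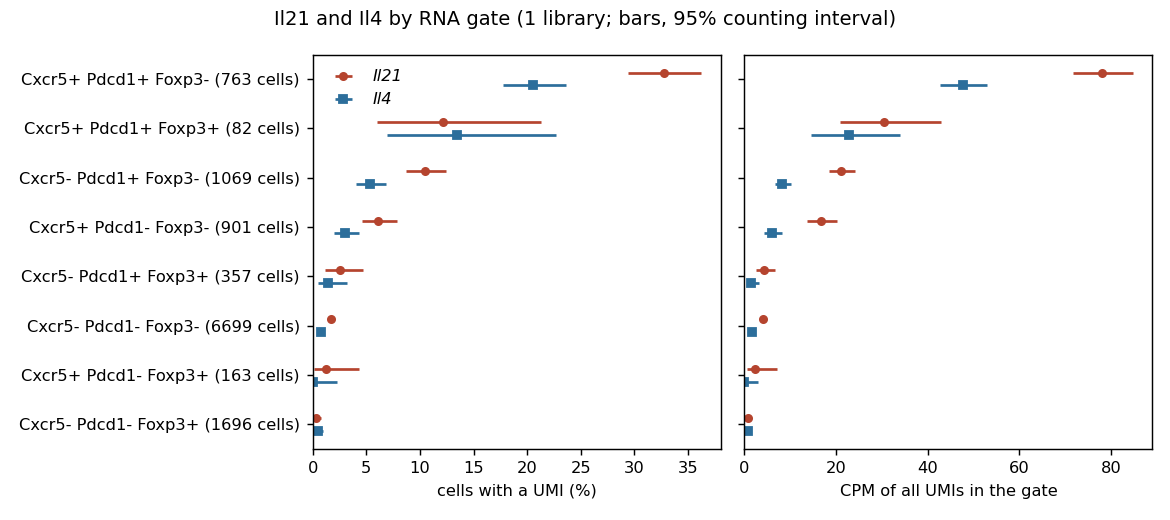
Share of cells with a UMI (left, %) and CPM of all UMIs in the gate (right) of Il21 (circles) and Il4 (squares) in the 8 RNA gates of the single-cell library, with 95% counting intervals. The Cxcr5+ Pdcd1+ Foxp3- gate stands apart at 32.8% and 20.6% of cells, and the gates with Foxp3 but not both receptors lie near 0. Gates hold all cells kept, B-like cells included.

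Clusters were found without Il21, Il4 and Sostdc1, and named from markers. By level of Il21 the order was Tfh-like cluster 15 (226 cells, 128 CPM, 111 to 148), recently stimulated-like cluster 10 (424 cells, 48.4 CPM, 41.9 to 55.6) and Tfh-like cluster 4 (1150 cells, 46.9 CPM, 42.1 to 52.0), the last 2 with overlapping intervals. Cluster 9 (437 cells, 22.5 CPM, 17.5 to 28.5) came next, ahead of cycling-like cluster 11 (15.3 CPM, 12.9 to 17.9) and Th17-like cluster 8 (10.2 CPM, 7.32 to 14.0), each overlapping its neighbour. Interferon response-like cluster 14 (6.28 CPM) and cycling-like cluster 13 (5.27 CPM) followed, and the remaining clusters lay at or under 3.93 CPM. The Treg-like clusters 3 and 5, the first led by haemoglobin genes, were at 0.652 and 0.606 CPM.

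Il4 had nearly the same order at the top but not further down. It stood at 84.9 CPM (70.8 to 101) in cluster 15, 26.8 CPM (23.2 to 30.7) in cluster 4 and 18.0 CPM (14.1 to 22.6) in cluster 10, then at 6.80 CPM in cluster 11, 5.38 CPM in cluster 8 and 4.51 CPM in cluster 13, 3 clusters whose intervals overlapped. In cluster 9 it was at 1.63 CPM (0.530 to 3.81), with 5 UMIs against 69 of Il21. Il21 thus made up 93.2% (84.9 to 97.8) of the UMIs of the pair in cluster 9. Its share was 60.1% (54.5 to 65.6) in cluster 15, 63.7% (59.5 to 67.7) in cluster 4 and 72.9% (67.2 to 78.1) in cluster 10, and none of these intervals reached that of cluster 9. In cluster 14 the share was 84.6% (54.6 to 98.1) on 11 Il21 and 2 Il4 UMIs, which overlaps that of cluster 9. The highest cell of cluster 9 held 7 of the 69 Il21 UMIs, and without it the level was 20.3 CPM.

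Cluster 9 stayed unnamed, since no marker list had more than 2 genes at least 2-fold higher there than in the other cells, too few for a name. The genes that led cluster 9 were Cd200, Nrn1, Spp1, Stfa3, Gpm6b and Sox4. Cluster 9 combined Cd200 at 240 CPM, above cluster 15 (110 CPM), and Sostdc1 at 40.8 CPM with Cxcr5 at 13.4 CPM, Pdcd1 at 58.5 CPM and Bcl6 at 13.4 CPM, where cluster 15 had 375, 609 and 141 CPM. In the Th17-like cluster 8, which led with Il17a, Ifng and Il17f, 25 of 535 cells held Il21 and 19 held Il4. Cluster 8 also had the highest levels of the gamma-delta T cell genes Trdc (57.1 CPM) and Tcrg-C1 (55.1 CPM) of all clusters. Its name therefore does not set Th17 cells apart from gamma-delta T cells, and which of these held Il21 or Il4 was not tested. A single cell there held 11 of the 40 Il21 UMIs, and without it the level was 7.46 CPM (5.0 to 10.7).

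Tfh-like cells matched the gate unevenly. In cluster 4 the 369 cells inside the gate had Il21 at 73.8 CPM (64.2 to 84.5) and the 781 outside it 30.8 CPM (26.1 to 36.2). In cluster 15 the 172 cells inside had 124 CPM (104 to 145) and the 54 outside 145 CPM (106 to 194), with overlapping intervals, and Il4 stood at 80.2 and 103 CPM. Cells outside the gate can lack a UMI of Cxcr5 or Pdcd1 at this depth.

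**Figure D3:**
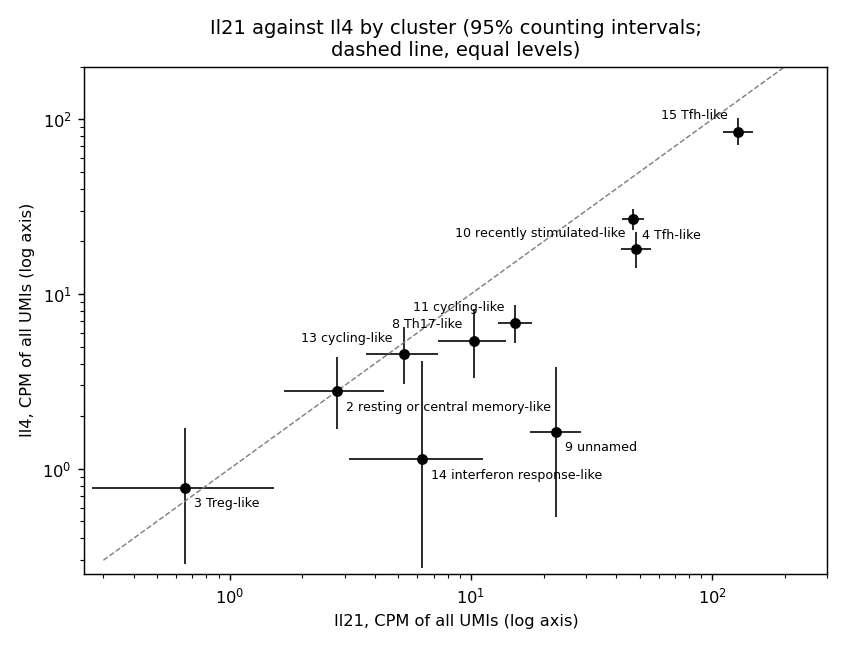
Il21 (horizontal) against Il4 (vertical) in CPM, both on log axes, for each cluster with at least 10 UMIs of the pair, with 95% counting intervals and a dashed line of equal levels. Cluster 15 stands highest (128 and 84.9 CPM), and cluster 9 lies far under the line (22.5 and 1.63 CPM).

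Over the 21 clusters, the genes whose level was most like that of Il21 included Angptl2 (Pearson r 0.95 of log2 CPM with 10 added), Il4 (0.93), Sostdc1 (0.92), Ptpn11 and Tox2 (0.91 each), Krt83 (0.87) and Tspan5 (0.86), among 5150 genes. Those most like Il4 included Krt83 (0.96), Il21 (0.93), Tox2, Gal (0.92 each), Ascl2 (0.91), Slc39a6 and Egln3 (0.89 each). The clusters share 1 library and differ in depth, and cluster 15 is high for most of these genes.

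Within the Tfh gate Il4 was found in a larger share of the cells with Il21 than of those without, although 177 cells held Il21 alone and 84 Il4 alone, against 73 with both. Of the 250 cells with Il21, 73 held Il4, 29.2% (23.6 to 35.3), against 84 of the 513 without Il21, 16.4% (13.3 to 19.9). Read from the other side, 46.5% (38.5 to 54.6) of the 157 Il4 cells held Il21, against 29.2% of the cells without Il4. Cells with Il21 were also deeper, with a median of 8695 against 6727 UMIs. Thinned to 3000 UMIs, the shares with Il4 were 21.2% (14.2 to 29.7) and 10.1% (7.82 to 12.7). Among the gate cells ordered by UMIs and cut into 3 equal groups, they were 17.9% and 14.1% in the shallowest, 33.3% and 16.5% in the middle and 32.0% and 19.7% in the deepest group. The shallowest group had overlapping intervals.

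The same held by cluster, where the intervals overlapped in each of the 3 clusters compared. In cluster 15, 38.5% of gate cells with Il21 and 23.4% of those without held Il4. In cluster 4 the shares were 22.0% and 14.6%, and in cluster 10 they were 37.5% (9 of 24 cells) and 14.3%. Outside the gate, among 9480 T cells, 28 cells held both, which is 9.69% (6.53 to 13.7) of the Il21 cells and 19.0% of the Il4 cells, against Il4 in 1.29% (1.07 to 1.55) of T cells without Il21. T cells outside the gate mix clusters with and without both genes.

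**Figure D4:**
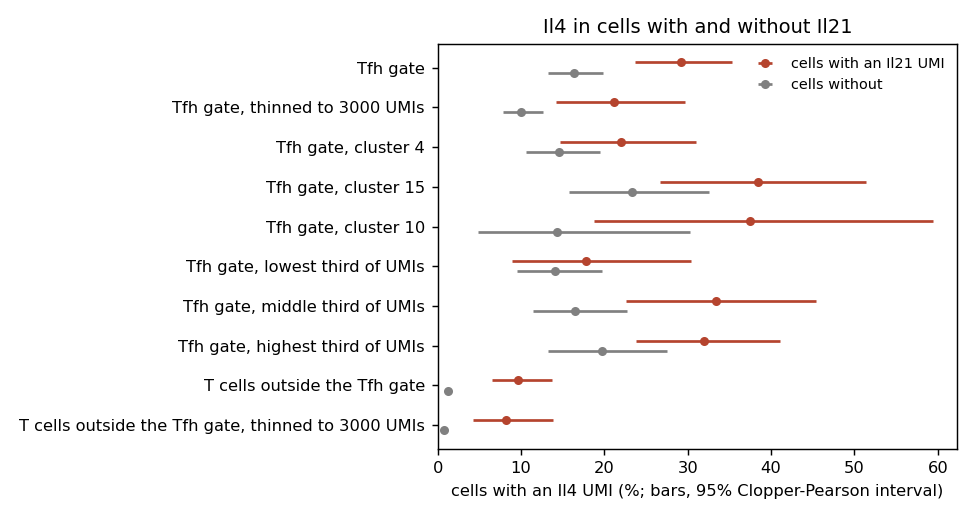
Share of cells with an Il4 UMI (%) among cells with (red) and without (grey) an Il21 UMI, in the Tfh gate as a whole, thinned to 3000 UMIs, by cluster and by depth, and in T cells outside the gate, with 95% Clopper-Pearson intervals. The share is higher beside Il21 in every set shown, with overlapping intervals in the 3 clusters and in the shallowest gate cells (17.9% against 14.1%).

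Next, the genes that mark these cells were sought by comparing summed UMIs of cells with and without each cytokine. A gene was counted at 2-fold on log2 CPM with 10 added, among genes with at least 50 CPM in 1 of the sets. Inside the Tfh gate few genes separated Il21 cells from the rest: of 2963 genes, 13 (0.439%) were at least 2-fold higher and 5 (0.169%) lower. Of the 9 cycling markers 3 passed, Cdk1, Ube2c and Top2a, and their summed level over all 9 was 2484 against 1382 CPM. Cdk1, the mitotic kinase, stood at 131 against 47.9 CPM (2.74-fold), with a UMI in 22.8% (17.8 to 28.5) against 8.19% (5.97 to 10.9) of cells. Ube2c was 2.55-fold, Ccnb1 2.62-fold and Top2a 2.12-fold higher. The cycling-like clusters were the deepest of the T cell clusters (medians of 20305 and 17062 UMIs). When Il21 cells were called after thinning to 3000 UMIs (118 cells), the ratios were 0.98 for Cdk1, 0.69 for Ube2c, 0.78 for Ccnb1 and 1.09 for Top2a, and the 9 cycling markers summed to 1658 against 1887 CPM. Of the 246 Il21 cells of the gate with at least 3000 UMIs, those that lost Il21 in thinning were counted among the 626 cells without it. Of the 12 highest named genes, only Il22 was past the limit under this call.

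Il22, a cytokine of Th17 and some Tfh cells, was at 196 against 64.0 CPM, with a UMI in 19.2% (14.5 to 24.6) against 12.1% (9.39 to 15.2) of cells. A single cell held 37.7% of its UMIs, and without the highest cell of each set the ratio was 2.1. Lyz2 and Plac8 were highest only through 1 cell, which held 97.9% and 86.0% of their UMIs, and without the highest cells their ratios were 0.79 and 1.93. Cebpa, a transcription factor of the Tfh marker list, lay just under the limit at 106 against 51.6 CPM, with a UMI in 53.2% (46.8 to 59.5) against 24.2% (20.5 to 28.1) of cells, and was 2.34-fold higher under the thinned call. Angptl2, a secreted angiopoietin-like protein, was at 147 against 82.7 CPM, 1.65-fold higher under that call.

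Lower in Il21 cells of the gate were Ccl5 (8.51 against 83.7 CPM), a chemokine of cytotoxic cells, Rflnb (0.40-fold), Arl4c (0.41-fold) and Lmo4 (0.46-fold). Klf2 (62.9 against 135 CPM) and S1pr1 (28.9 against 63.2 CPM), which keep T cells in circulation, lay just short of the limit. Under the thinned call these 6 had ratios under 1, from 0.13 for Ccl5 to 0.68 for Rflnb. Of 5 receptor, 5 JAK and STAT, 4 feedback and 11 B cell help genes measured, 0 passed in either direction. This is near the share of all genes, 0.439% higher and 0.169% lower, and is not a result about these lists. Il21r stood at 65.3 against 79.8 CPM, Stat3 at 128 against 120 CPM, and Socs3, which damps STAT3 signalling, at 154 against 262 CPM (0.59-fold).

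Between gate cells with and without Il4, 6 of 2962 genes (0.203%) were higher with Il4 and 7 (0.236%) lower. Of the 12 highest named genes, 2 were past the limit without the highest cell of each set, and 2 with each cell weighted equally. Gal, which encodes galanin, stood at 176 against 59.6 CPM (2.95-fold, with a UMI in 7.01% against 3.30% of cells), and Krt83, a keratin gene that led cluster 15, at 179 against 72.7 CPM (2.47-fold, 41.4% against 22.3% of cells). Smox and Cd22 were 2.55-fold and 2.43-fold higher. Asb2 (126 against 58.5 CPM) and Cebpa (121 against 60.8 CPM) lay just short of the limit. Lmo4, lower in Il21 cells, was 2.42-fold higher in Il4 cells, and 1.20-fold under the thinned call. Il22 was at 217 against 90.6 CPM, but 1 cell held 63.5% of its UMIs and without the highest cells the ratio was 1.03. Under the thinned call (88 cells) Gal kept 2.05-fold, Krt83 2.04-fold, Asb2 1.77-fold and Cd22 1.75-fold. Of the 12 highest named genes, only Il22 was then past the limit with 10 CPM added.

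Among the transcription factors, 0 of 18 measured passed in Il4 cells of the gate. This is near the share of all genes, 0.203% higher and 0.236% lower, and is not a result about the factors. Ascl2, which drives Cxcr5, was closest at 54.5 against 28.1 CPM (1.94-fold), followed by Bcl6 at 89.4 against 59.9 CPM (1.49-fold) and Tox2 at 210 against 147 CPM (1.43-fold). Tfh markers summed to 1493 against 1081 CPM. The gate cells with Il4 were lower in Klf2 (43.1 against 123 CPM), Ccl5 (5.71 against 65.8 CPM), Cd74 (45.0 against 142 CPM) and Ifit3 (22.8 against 69.1 CPM). Cd74, the invariant chain of antigen-presenting cells, depended on the doublet step: with likely doublets kept its ratio was 1.04. Gata3, the type 2 factor, was at 45.6 against 50.4 CPM.

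The 177 gate cells with Il21 alone were also set against the 84 with Il4 alone, where 19 of 3072 genes (0.618%) were higher in the Il21 cells and 8 (0.26%) higher in the Il4 cells. Higher beside Il21 were Srm (3.82-fold), Nop56 (2.88-fold; 120 against 41.8 CPM), C1qbp (2.38-fold) and Hspd1 (2.26-fold), which serve polyamine synthesis, ribosome assembly and mitochondria, and Tnfrsf4, which encodes OX40 (2.53-fold; 407 against 160 CPM). Under the thinned call these lay between 1.81-fold and 2.60-fold. Il2 was at 61.3 against 2.70 CPM, but 1 cell held 79.8% of the 129 UMIs, and it was present in 9.04% against 2.38% of cells. Higher beside Il4 were Lmo4 (392 against 68.5 CPM; 64.3% against 35.6% of cells), Rflnb (214 against 88.4 CPM), Asb2 (140 against 58.5 CPM), Rab37 and Cd22. Lmo4 kept its direction without the highest cells (0.23-fold in Il21 cells) and under the thinned call (0.46-fold). Ascl2 was at 28.1 against 56.6 CPM and Sh2d1a, the SLAM adaptor needed for help to B cells, at 437 against 764 CPM. With each cell weighted equally, 9 genes in all passed in place of 27.

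**Figure D5:**
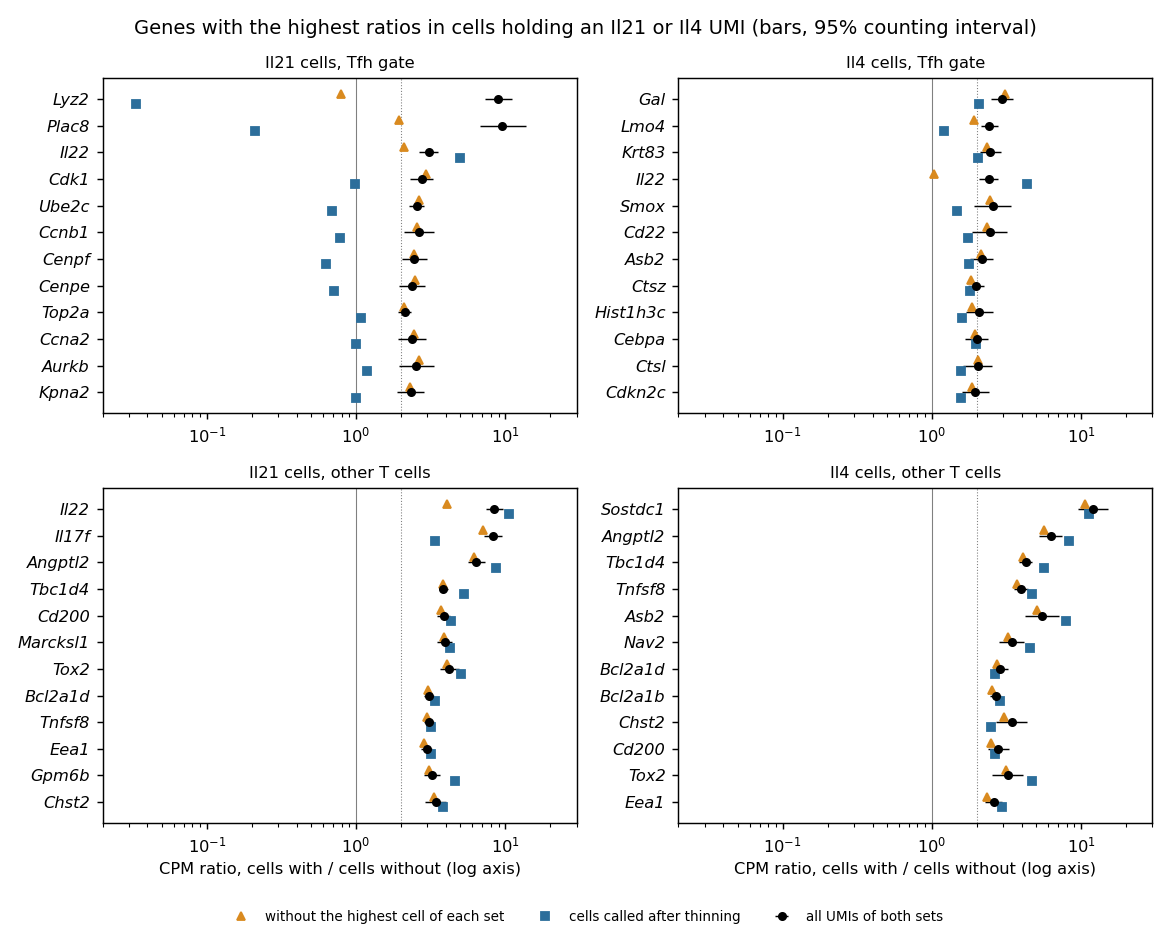
CPM ratios (log axes) of the 12 genes with the highest ratios in cells with Il21 or with Il4, inside the Tfh gate (top) and among other T cells (bottom), from all UMIs with 95% counting intervals (circles), without the highest cell of each set (triangles) and with cells called after thinning (squares). Inside the gate Cdk1 goes from 2.74 to 0.98 after thinning. Outside it all 12 genes of Il21 cells and 11 of 12 of Il4 cells were past the 2-fold limit with 10 CPM added after thinning, the exception being Chst2 (2.47-fold, 43.8 against 17.7 CPM).

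Among T cells without the gate's combination, 41 of 2881 genes (1.42%) were at least 2-fold higher in the 289 cells with Il21 than in the 9191 without, and 42 (1.46%) were lower. The sets differ in their clusters: of the Il21 cells 38.4% lay in Tfh-like and 18.0% in recently stimulated-like clusters, against 7.43% and 3.27% of the cells without Il21, of which 41.6% lay in resting or central memory-like and 23.2% in Treg-like clusters. The part of this difference in the ratios was not tested. Of the Tfh markers, Angptl2 stood at 96.0 against 15 CPM (6.4-fold, with a UMI in 38.1% against 5.95% of cells), Tox2 4.21-fold (65.9 against 15.6 CPM) and Cd200 3.86-fold (151 against 39.2 CPM). Of 4 measured Tfh markers 3 passed. Tbc1d4 was 3.84-fold, Marcksl1 3.91-fold, Chst2 3.42-fold and Tnfsf8 3.06-fold higher. Maf was at 537 against 269 CPM, just short of the limit, and Nfatc1, whose product binds GGAAA, at 118 against 53.1 CPM (2.23-fold). The Il21 cells were again deeper, with a median of 7698 against 5732 UMIs. Under the thinned call all 12 highest named genes were past 2-fold.

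Th17 cytokines marked a part of these cells. Il17a was at 170 against 15.1 CPM (11.2-fold), Il17f at 94.0 against 11.4 CPM and Il22 at 102 against 12.1 CPM. They came from few cells: 14 of the 289 Il21 cells held Il17a, 18 held Il17f and 34 held Il22, and the highest cell held 210 of 576 Il17a UMIs. Under the thinned call the ratios were 6.48, 3.39 and 10.6. Of 10 resting or central memory markers 8 were lower in Il21 cells, against 1.46% of all genes. Among the 8 were Igfbp4 (18.0 against 235 CPM) and Il7r, the interleukin 7 receptor (78.6 against 241 CPM). Il2ra, which encodes CD25, was at 35.5 against 86.3 CPM and Ly6c1 at 7.39 against 68.8 CPM. Gzmb was at 28.7 against 255 CPM.

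Il4 cells outside the gate, 147 against 9333 without, had 34 of 2876 genes (1.18%) higher and 34 (1.18%) lower. Of these Il4 cells 44.9% lay in Tfh-like clusters, against 7.80% of the cells without Il4, and the part of this in the ratios was not tested. Sostdc1 stood first at 72.1 against 6.00 CPM (12-fold, 9.5 to 15.1), with a UMI in 15% (9.62 to 21.8) against 1.70% (1.45 to 1.99) of cells. In Il21 cells outside the gate Sostdc1 was present in 9.34% (6.25 to 13.3) against 1.68%. Inside the gate it differed less, at 21% against 14.9% of cells with and without Il4 and 19.6% against 14.4% with and without Il21, with overlapping intervals in both. Angptl2 was 6.27-fold, Asb2 5.46-fold, Tbc1d4 4.25-fold, Tnfsf8 3.96-fold and Tox2 3.22-fold higher in Il4 cells outside the gate. Cd40lg (85.0 against 36.2 CPM), Btla (87.3 against 31.8 CPM) and Cd200 also passed, so 4 of 9 measured genes of the B cell help list were higher. Among the 4, Btla and Cd200 are inhibitory molecules.

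Of the 9 cycling markers, 0 passed in Il4 or in Il21 cells outside the gate. This is near the shares of all genes, 1.18% higher and 1.18% lower for Il4, and 1.42% and 1.46% for Il21. The summed level of the 9 markers was 1361 CPM with against 1648 CPM without Il4, and 2400 against 1602 CPM with and without Il21. Under the thinned call it was 907 against 1678 CPM for Il4 and 2027 against 1664 CPM for Il21. Il13, the neighbour of Il4, was found in 4 of the 147 Il4 cells, 2.72% (0.746 to 6.82), against 0.129% (0.0665 to 0.224) of those without, and the highest of the 4 held 11 of their 19 UMIs. Il17a, Il17f and Il22 did not pass the 50 CPM limit in Il4 cells outside the gate, and Gata3 was at 85.0 against 56.3 CPM (1.51-fold). The lowest genes were Ccl5 (15.2 against 207 CPM), Lyz2, Ly6c2, Plac8, Gzmb (43.2 against 248 CPM) and Igfbp4 (42.5 against 227 CPM).

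Mast cells, basophils and NKT cells also make Il4. Of 9 mast cell or basophil markers, 7 had 0 UMIs in Il4 cells outside the gate and 6 in those inside it, among them Mcpt8, Cpa3, Fcer1a and Gata2 in both. Mcpt8, Fcer1a and Gata2 were also at 0 in the T cells without Il4, inside and outside the gate, and Cpa3 inside it. Zbtb16, the factor that defines NKT cells, had 0 UMIs in both sets of Il4 cells and in the gate cells without Il4. Zbtb16 was rare, with 15 UMIs (3.84 CPM) in cluster 8, so a 0 in few cells carries little weight. The cells outside the gate had been chosen by a UMI of Cd3d, Cd3e or Cd3g, which 147 of 164 Il4 cells met. Those inside needed Cxcr5 and Pdcd1. This choice disfavours mast cells and basophils, so the zeros are not a test of these cells as sources of Il4. The 125 likely doublets that met the gate were left out; 27 of them held Il21 and 25 Il4. With them kept, 7 genes were higher and 10 lower in Il21 cells of the gate, in place of 13 and 5, and 5 of the 12 highest named genes were past the limit. For Il4 cells 4 were higher and 5 lower, and 4 of the 12 named genes were past the limit.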

How the data were processed

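The members, gene lists and comparisons were chosen with earlier results of these data known. Per the labels' protocols, Trizol RNA and an NEBNext Ultra kit gave the bulk libraries, and the 10x Genomics 3′ kit, version 2, the single-cell library. The submitters' processing notes name TopHat, Cufflinks, Seurat 2 and Cell Ranger 2.1.0 among others, with the builds mm9 and mm10 and no roles. Cell Ranger 3.1.0 is named in the matrix, per the file headers. For the bulk table, the counter, its strand setting and the test were not given in the sources used here. As deposited, this table holds raw counts per gene, the authors' CPM, their fold (the ratio of those CPM) and its log2 value, and p-values from 1 library per group, which were not used. The matrix as deposited holds UMI counts per gene and barcode. The header of the WT column ends in a 2 that is missing from the sample's title. It was taken as this sample since only 1 sample is labelled as WT Tfr RNA.

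CPM, ratios and intervals (conditional binomial for ratios, Poisson for sums, Clopper-Pearson for shares) were computed from the counts with Python 3.11.15 and SciPy 1.17.1, and TMM factors with edgeR 4.0.16. A fold of 2 on log2 (CPM + 1) in bulk, with at least 5 CPM in 1 library, or on log2 (CPM + 10) in single cells, with at least 50 CPM in 1 set, was counted as a difference. Barcodes (15002) were filtered at 500 genes, which took out 835, and at 10% mitochondrial UMIs, which took out 977. Another 1460 likely doublets were removed, namely the 10% of cells with the highest score from simulated doublets and 141 cells in which B and T cell genes each had 3 UMIs or more. Leiden clusters (leidenalg 0.10.2, resolution 1) used 2000 variable genes without Il21, Il4, Sostdc1 and receptor segments. Thinning drew 3000 UMIs per cell and left out shallower cells. Under the thinned call, a cell whose UMIs of the cytokine were all lost in thinning was counted as a cell without it. The ratio, interval and 2-fold count were tested on simulated sums of independent counts. These hold no spread between cells, so the test does not cover genes whose UMIs come from few cells.

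Named genes were Il21 and Il4, up to 4 members of each list with the largest ratio, and per comparison of cells the 12 highest and 6 lowest ratios among genes found in at least 10 cells or 5% of cells, without predicted models, receptor segments and ribosomal or mitochondrial genes. A gene that the likeness over clusters would name is not reported here. Other genes named for their role were chosen after their values were seen. Promoter sequences come from RefSeq (GRCm38.p6), where 2 of 2 members matched.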

Additional observations from a re-analysis of the deposited data

How the results depend on the processing

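No paired analysis was possible because the compared groups have 1 library each. The bulk folds of Il21 and Il4 stayed within their counting intervals under TMM scaling (22.5 and 31.1) and other settings. With TMM, 414 genes were higher and 688 lower (37.6% of calls higher against 22.2%), and the median log2 ratio went from -0.04 to 0.11.

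Shares in the Tfh gate followed how a positive cell was defined. With at least 2 UMIs, Il21 was in 14.9% and Il4 in 9.83% of gate cells, and Il4 in 6.93% of gate cells without Il21. Thinned to 3000 UMIs, the gate held Il21 in 15.9% and Il4 in 11.8% of cells and 45.8% of Il21 UMIs, and Il4 was in 21.2% and 10.1% of cells with and without Il21. A gate of at least 2 UMIs of each receptor gave 42.2% and 29.8% of cells, 31.0% and 43.1% of all UMIs, and Il4 in 36.0% and 25.3% of cells with and without Il21. A 5% mitochondrial limit gave 46.9% of Il21 UMIs.

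Counts of marker genes varied with the call of a positive cell and with the filter. With at least 2 UMIs to call a cell, 36 genes passed for Il21 and 27 for Il4 in the gate, 203 and 202 outside it, and 97 between the single-cytokine sets, against 18, 13, 83, 68 and 27. Without a filter on low values the counts were 38, 34, 135, 121 and 88. With each cell weighted equally, 24 passed for Il4 in the gate and 9 between the single-cytokine sets. Of 2 alternatives chosen after seeing the data, calling cells after thinning gave 10 for Il21 in the gate and 109 for Il4 outside it, and leaving out the highest cell of each set gave 7 for Il4 in the gate. Of 78 alternative values, 48 lay within the counting interval of the reported share or fold, or within 1.5 times the reported count. No bulk fold fell under 1. For the 40 counts of genes only the total was compared, and a total cannot reverse. With doublets kept, 17 genes passed for Il21 in the gate against 18, but 7 were higher and 10 lower against 13 and 5. Depth limits the single-cell values: 1 UMI is the whole evidence in most positive cells.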
